A study of Mus musculus with 14 samples.

Results

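The 7 mouse genes described here encode the histone H3K4 methyltransferases of the KMT2 and SETD1 families: Kmt2a, Kmt2b, Kmt2c, Kmt2d, Kmt2e, Setd1a and Setd1b. They were taken by gene symbol, and all 7 were found among the 52459 genes of the count tables. The study compared wild-type (WT) E14Tg2a cells, a line of mouse embryonic stem cells (mESCs) grown with LIF, with the same line carrying METTL14 R255K, a knock-in by CRISPR-Cas9 that puts lysine in place of an arginine of METTL14. METTL14 is the RNA-binding partner of METTL3 in the complex that writes N6-methyladenosine (m6A) into mRNA. m6A was mapped by MeRIP-seq, in which RNA fragments pulled down with an m6A antibody are sequenced beside the input RNA, from 2 IP and 2 input libraries per genotype, deposited as 1 peak list per genotype. mRNA decay was followed with 6 libraries, 1 per genotype and time, from cells kept in 5 µg/ml actinomycin D, a blocker of transcription, for 0, 4 and 8 h. No other allele or agent is named for either genotype. The labels name no clone, and how many knock-in clones the samples come from was not given in the sources used here. No value had a replicate, so that no test between genotypes could be run, and every interval below is a 95% interval of counting error only.

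Methylation of histone H3 at lysine 4 marks active and poised promoters (mainly the trimethyl form) and enhancers (mainly the monomethyl form). KMT2A and KMT2B, the relatives of fly Trithorax, act with menin at promoters of developmental genes, KMT2C and KMT2D act with KDM6A and NCOA6 at enhancers, and SETD1A and SETD1B act with CXXC1 and WDR82 at active promoters. All 6 of these enzymes work on a shared core of WDR5, RBBP5, ASH2L and DPY30, whereas KMT2E is a distant relative for which methyltransferase activity is in doubt. m6A is known to shorten the life of many mRNAs in mESCs, and GGAC is a core motif at which it is found.

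The actinomycin D libraries held between 13812160 and 18813640 counts each. Mettl14, the targeted gene, was at 5.27, 3.38 and 2.26 FPKM (counts per kilobase of exon, scaled to the summed counts of the library) at 0, 4 and 8 h in WT and at 2.58, 2.03 and 1.5 FPKM in R255K cells. A substitution of 1 amino acid cannot be seen in counts per gene, so these levels do not check the labels. All 8 markers of embryonic stem cells (Pou5f1, Nanog and others) stood at 65.7 FPKM or more in both genotypes at 0 h. The 6 fibroblast markers summed to 1.66 FPKM in WT and 5.96 in R255K cells, with Postn at 0 in both, and the 8 markers of differentiated lineages summed to 20.5 and 9.03 FPKM, of which Sox1 alone made 13.4 in WT. Their part in the results below was not tested.

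The H3K4 methyltransferase mRNAs carried many m6A peaks. The WT list placed 43 peaks on exons of the 7 genes, with 10 on Kmt2a, 10 on Kmt2d, 7 on Kmt2c, 5 on Setd1b, 4 on Kmt2b, 4 on Kmt2e and 3 on Setd1a. All 7 genes thus had at least 3 exonic peaks, against 9.16% of the 11869 genes with a mean of at least 1 FPKM at 0 h (called expressed below), and 57.4% of the expressed genes had any. More than 10 peaks were found on only 5 expressed genes. Long transcripts offer more room for peaks, and the exons of the 7 genes add up to between 6795 and 20291 bp. Per kilobase of exon the members ranged from 0.345 peaks in Kmt2c to 0.600 in Kmt2a with a median of 0.417, beside a median of 0.336 over the 6807 expressed genes with a peak. In R255K cells 28 peaks remained on exons of these genes. They numbered 8 on Kmt2d, 6 on Kmt2a, 5 on Setd1b, 4 on Kmt2b, 2 on Kmt2e, 2 on Setd1a and 1 on Kmt2c. Every one of the 28 overlapped a WT peak.

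**Figure D1:**
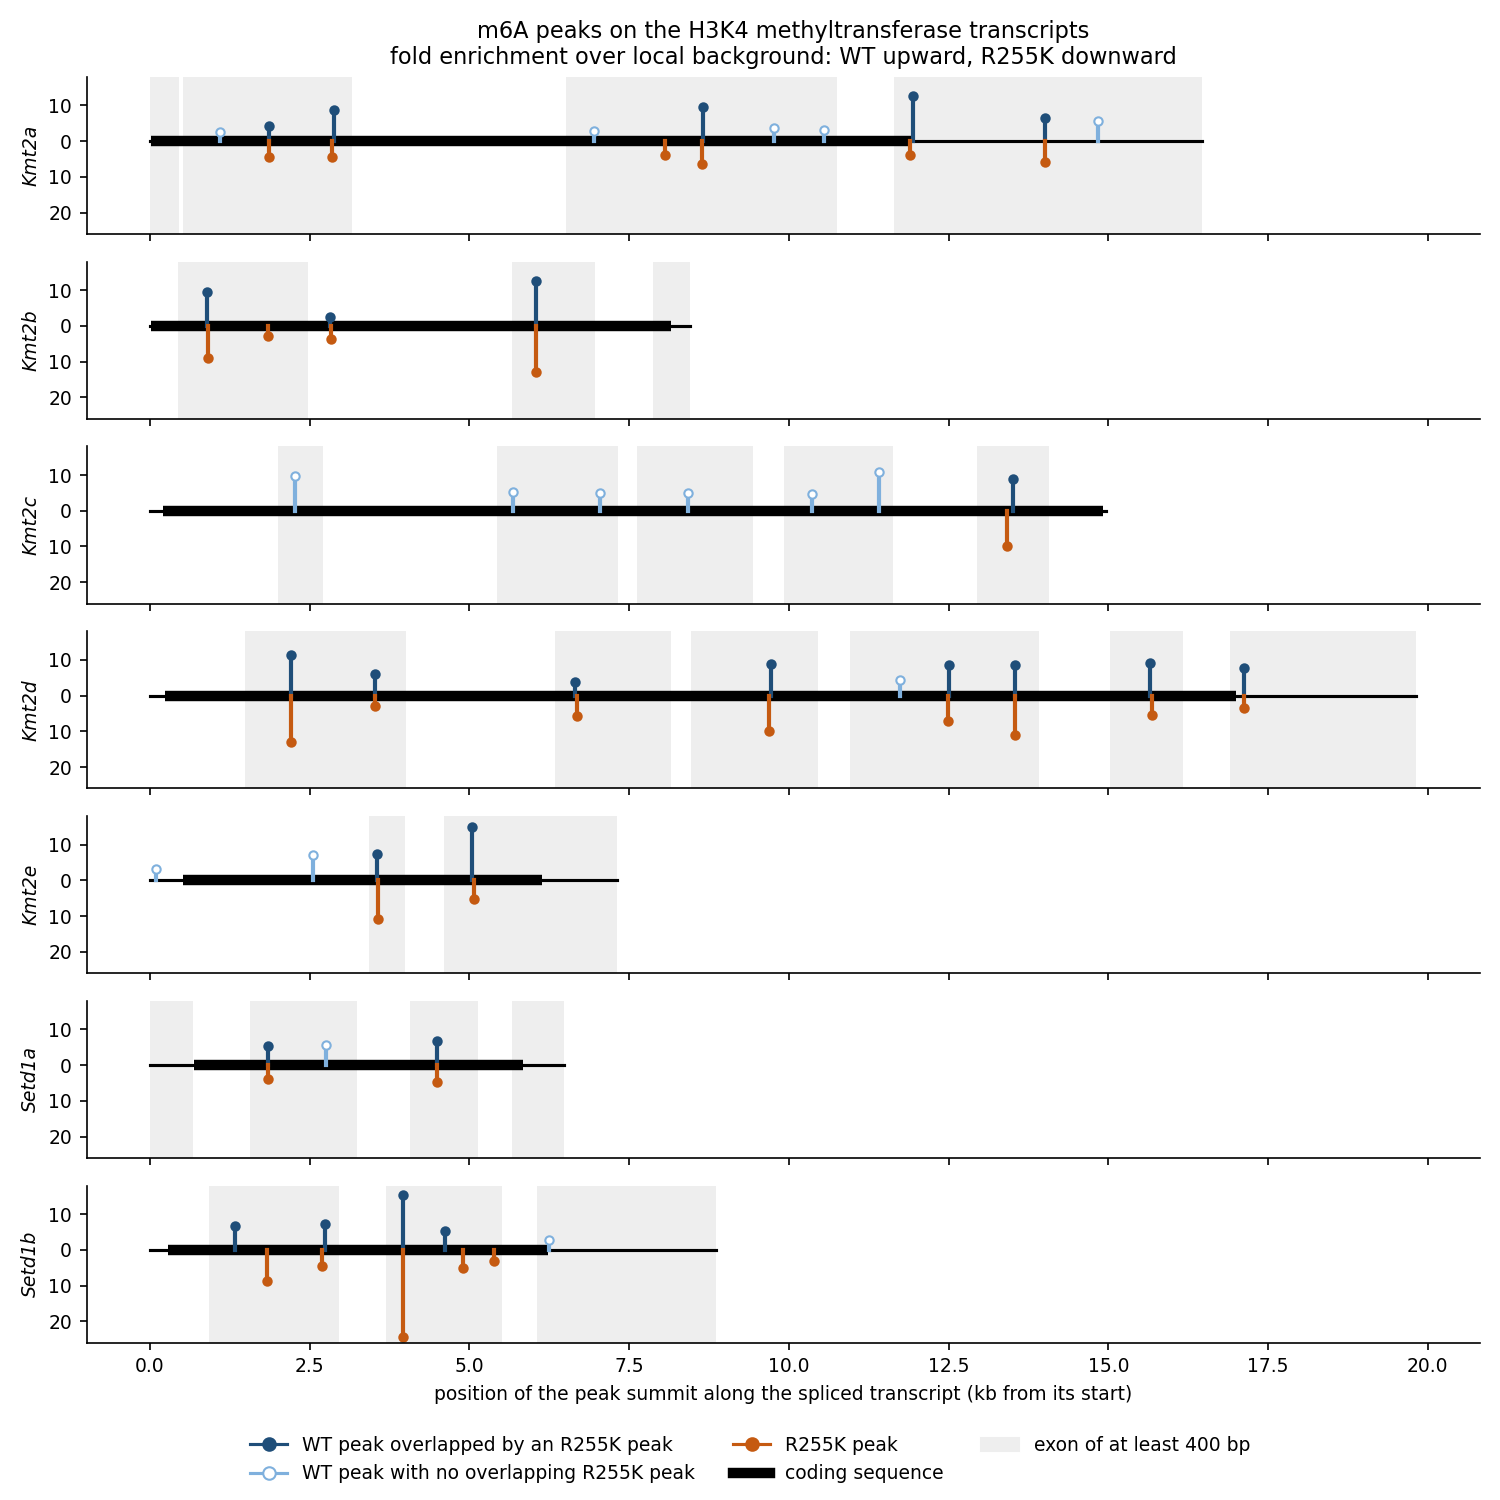
Peak summits along the spliced transcript of each gene (x axis, kb from its start) with their fold enrichment over the local background (y axis, WT upward and R255K downward; open circles are WT peaks that no R255K peak overlapped). The summits sit in exons of at least 400 bp with 3 exceptions in WT and 1 in R255K cells, and Kmt2c is left with 1 R255K peak. A WT summit in an intron of Kmt2b and another just outside Kmt2d are not drawn.

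The bases around these peaks are shown as they stand in the mouse genome (mm10, GRCm38) on the strand of each gene, 5′ to 3′, with the GGAC nearest to the summit in capitals. The first set holds the GGAC copies under peaks found in both genotypes, chosen to give each of 6 genes its peak of highest WT fold enrichment among those present in both and with a GGAC within 100 bp of the summit. In every line the A of the motif is base 13 of 25.
Kmt2a peak 8, chr9:44807857-44807881, minus strand: tggagaaccaGGACccagggccacc
Kmt2b peak 4, chr7:30575213-30575237, minus strand: gaggtccaggGGACagctcagagga
Kmt2c peak 7, chr5:25284578-25284602, minus strand: gctgaggagaGGACtacaaatgaag
Kmt2d peak 2, chr15:98863504-98863528, minus strand: caccacccgaGGACtctcctgcctc
Kmt2e peak 4, chr5:23502018-23502042, plus strand: gacaccctcaGGACaatcttcagca
Setd1a peak 3, chr7:127796020-127796044, plus strand: actgagtcagGGACagaagtagacc
Of these 6 places, 5 are coding, and the Kmt2a copy lies in the 3′UTR, where the summit was 31 bases past the stop codon. The motif is followed by T, completing GGACT, in Kmt2c and Kmt2d.

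The second set gives, for the 6 genes that have one, the strongest WT peak with a GGAC near its summit that no R255K peak overlapped.
Kmt2a peak 10, chr9:44804943-44804967, minus strand: tgacagctgcGGACctcgagggttc
Kmt2b peak 3, chr7:30580384-30580408, minus strand: agccctctggGGACcctctccccac
Kmt2c peak 1, chr5:25373256-25373280, minus strand: tgctgtcagaGGACtctgaggtggc
Kmt2d peak 6, chr15:98845710-98845734, minus strand: cagccttatgGGACaccggctactc
Kmt2e peak 2, chr5:23493285-23493309, plus strand: gactcacattGGACagcagcgtcgg
Setd1b peak 5, chr5:123165983-123166007, plus strand: aactgccgggGGACcctcaattagt
The Kmt2a copy lies in the 3′UTR, the Kmt2b copy in an intron and the other 4 in coding sequence. A peak is far longer than these stretches, so a printed motif is a place in the peak and not a mapped m6A.

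WT peaks of the H3K4 methyltransferases lay mostly in long exons. Of 43 summits, 35 were in coding sequence, 5 in 3′UTRs, 1 in the 5′UTR of Kmt2e, 1 in an intron of Kmt2b and 1 just outside Kmt2d. Coding sequence makes up most of each of these transcripts. The coding share over all peaks was not computed, so whether 35 is many is not known. Near the stop codon, where m6A is known to gather in many mRNAs, 3 summits lay within 200 bp. Such a window is a small part of transcripts of 6487 to 19823 bp. The share over all genes was not computed, so whether 3 is few or many is not known. On 1 protein-coding transcript per gene, the 7 genes have 250 exons, and only 31 of them (12.4%) are at least 400 bp long, though these hold 61.7% of the bases. These 31 exons carried 38 of the 41 WT summits that fall in an exon. All 21 exons of at least 1000 bp had a WT summit, as did 6 of 10 exons of 400 to 999 bp, 3 of 32 of 200 to 399 bp and 0 of 187 shorter ones. Counted over all annotated exons merged, as can be done for every gene, the members had a summit in 22 of 25 exons of at least 1000 bp (88.0%). For expressed genes with a WT peak and at least as much exon as the shortest member, that share was 48.4%, members included, and it was 45.1% for all expressed genes.

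Kmt2a (chr9:44803355-44881296, minus strand) and Kmt2b (chr7:30568858-30588726, minus strand) encode the Trithorax-type enzymes. In Kmt2a the strongest WT peak, beside the stop codon, had a fold enrichment of 12.5 in WT and 3.76 in R255K cells. The next, in the 4237 bp exon 27, went from 9.53 to 6.33, and that in exon 3 from 8.67 to 4.50. Kmt2a had 5 peaks with no R255K counterpart, of which 3 lay in exon 27 and all had a WT fold enrichment of 5.66 or less. In Kmt2b the leading peaks were almost the same in both lists, at 12.5 in WT and 12.8 in R255K cells in exon 28, and at 9.41 and 9.02 in exon 3. The 1 Kmt2b peak without a counterpart had its summit in an intron, a fold enrichment of 4.58 and 43 bp on an exon.

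Kmt2c (chr5:25271798-25498783, minus strand) and Kmt2d (chr15:98831669-98871204, minus strand) encode the enhancer-type enzymes. Of 7 Kmt2c peaks 6 had no counterpart in R255K cells, the largest share among the 7 genes. They included the strongest of the gene, with a fold enrichment of 10.9 in exon 43, and another of 9.68 in exon 14. The remaining Kmt2c peak, in exon 52, had 9.02 in WT and 9.88 in R255K cells. Kmt2d kept 9 of 10 peaks, with 11.3 in WT and 13.0 in R255K cells for the strongest, in exon 11. The peak just past the Kmt2d stop codon stood at 7.82 and 3.45. The first Kmt2d peak reached only 9 bp into the gene, had its summit outside it and was overlapped by an R255K peak (5.31 and 3.58) that touches no Kmt2d exon.

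Setd1a (chr7:127776670-127800122, plus strand) and Setd1b (chr5:123142193-123168629, plus strand) encode the promoter-type enzymes, and Kmt2e (chr5:23434441-23504235, plus strand) the distant relative. Setd1b had the highest fold enrichment of the 7 genes in both lists, 15.4 in WT and 24.3 in R255K cells at the same place in exon 11, with summits 4 bp apart. A weak Setd1b peak beside the stop codon (2.91) had no counterpart. The 2 shared Setd1a peaks went from 6.69 to 4.80 and from 5.48 to 3.91, and the remaining one, of 5.63 in WT, had no counterpart. In Kmt2e the peak of exon 27 went from 14.9 to 5.09 and that of exon 22 from 7.38 to 10.8. The other 2 Kmt2e peaks, of 7.17 and 3.21 in WT, had no counterpart.

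In all, 17 of the 43 WT peaks had no overlapping R255K peak (39.5%, Wilson interval 26.4 to 54.4), against 47.9% of the 13870 exonic WT peaks of all genes, so that the share in these genes was not above that of the whole list. Among expressed genes with a WT peak, 31.5% were left with none of them, and of the 7 members 0 were. The members had 3 to 10 WT peaks each and those genes a median of 1, so these 2 values cannot be compared directly. Without Kmt2c, 30.6% of the members' WT peaks (11 of 36) had no counterpart. The peaks differed in median strength, but their ranges overlapped. WT fold enrichment ran from 2.60 to 15.4 in peaks also found in R255K cells and from 2.69 to 10.9 in the others. Those also found in R255K cells had a median WT fold enrichment of 8.21 and a median −log10 q of 58.6, and those not found had 4.71 and 17.2. Under a fold enrichment of 5, 11 of 14 member peaks had no counterpart, and at 8 or more 2 of 15, both in Kmt2c. Over all exonic WT peaks these shares were 67.7% and 22.0%. Where both lists had the peak, R255K had the lower fold enrichment in 15 of 26 (57.7%, against 70.6% of all 7231 such peaks). The median ratio of R255K to WT was 0.930 in the members and 0.797 over all. Summits moved little, with 21 of 26 within 50 bp of each other.

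**Figure D2:**
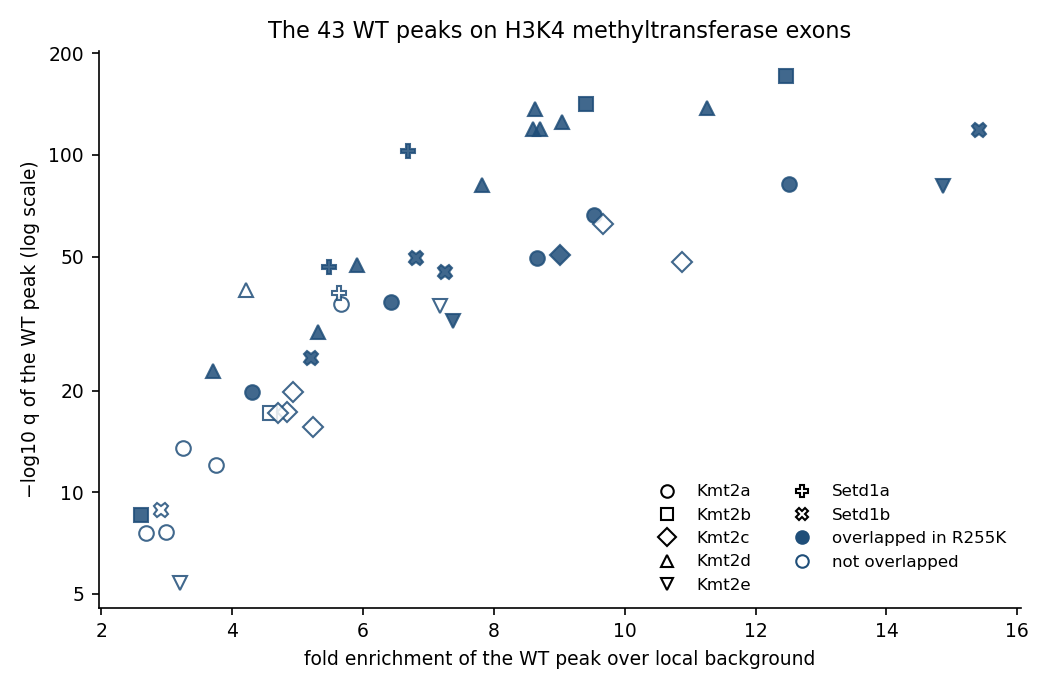
Each of the 43 WT peaks by its fold enrichment (x axis) and its −log10 q (y axis, log scale), with the gene by symbol shape. Filled symbols are peaks overlapped in R255K cells and open symbols those that were not. The open symbols lie mostly at the lower left, where some filled symbols also lie. The open symbols farthest from it are 2 Kmt2c peaks of 9.68 and 10.9.

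The absent peaks lay unevenly among the genes. Kmt2a, Kmt2c and Kmt2e had no counterpart for 13 of their 21 peaks (61.9%, 40.9 to 79.2), and the other 4 genes for 4 of 22 (18.2%, 7.31 to 38.5). This division of the genes was noticed in the data and is a description. Kmt2c alone gave 6 of the 13. The intervals take peaks of 1 gene as independent and do not allow for the choice of the division. The same 3 genes had the lowest GC content in their exons (43.5% to 50.6%, against 56.7% to 58.3% in the others) and were the 3 whose level at 0 h of actinomycin D was over 2-fold lower in R255K cells, as given further on. Over all expressed genes, the share of WT peaks without a counterpart was 51.7% in the quartile of lowest GC content and 39.0% in that of highest. It was 52.8% in genes over 2-fold lower in R255K cells at 0 h and 42.3% in the others. GC content, level and loss of peaks cannot be told apart with 7 genes. The read depth behind the lists is unknown.

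Around the summits, GGAC was present within 100 bp on the strand of the gene in 34 of 43 peaks (79.1%). It was in 79.3% of the 12655 windows of the same 201 bp around exonic WT summits of all genes. GGACT, which is counted within GGAC, was found in 21 of the 43 (48.8%, all genes 39.3%). Among the peaks also found in R255K cells, 24 of 26 windows held GGAC and 17 of 26 GGACT. Among those without a counterpart, 10 of 17 held GGAC and 4 of 17 GGACT. AGAC went the other way, with 12 of 26 and 15 of 17 windows (62.8% of the 43, all genes 69.1%), and AAAC was in 9 of 26 and 10 of 17 (44.2%, all genes 51.5%). This split of the motifs was not computed over all genes, so it cannot be called particular to the members. For the whole transcriptome the paper reported A(G/A)AC as enriched in m6A regions decreased in R255K cells, and GGAC in constitutive ones. The members' windows without a counterpart were also poorer in G and C, at a median of 51.7% against 58.7%. Over all exonic WT peaks these medians were 51.7% and 54.7%. The part of GC content in these motif counts was not tested. In 16 peaks the nearest GGAC lay within 20 bp of the summit.

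At 0 h, before decay, the members differed widely in level in WT cells. Kmt2b was highest at 21.3 FPKM, followed by Setd1b at 12.4, Kmt2d at 10.5, Setd1a at 10.3, Kmt2a at 9.45, Kmt2c at 5.77 and Kmt2e at 2.02. In that order only Kmt2d and Setd1a, and Setd1a and Kmt2a, had counting intervals that overlapped. In R255K cells the order was Kmt2b at 20.7 FPKM, Setd1a at 10.8, Setd1b at 7.07, Kmt2d at 5.61, Kmt2a at 4.09, Kmt2c at 1.10 and Kmt2e at 0.832, and only the last 2 overlapped. Setd1a shares 3523 bp of its 6795 bp of exon with AC149222.1 on the same strand, which was listed at 0 counts in all 6 libraries. How reads in shared exons were counted is not given in the sources used here, so the level of Setd1a and its place in these orders are uncertain.

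Kmt2c differed most at 0 h. It had 2039 counts in WT and 348 in R255K cells, and its level was 5.26-fold higher in WT (4.69 to 5.91). Kmt2e with 367 and 136 counts was 2.42-fold higher in WT (1.98 to 2.97), and Kmt2a with 2745 and 1067 counts 2.31-fold (2.15 to 2.48). Kmt2d was 1.87-fold higher (1.77 to 1.98, from 3640 and 1744 counts) and Setd1b 1.76-fold (1.65 to 1.88, from 2616 and 1335). The intervals of Kmt2b (1.03, 0.981 to 1.08) and Setd1a (0.947, 0.873 to 1.03) held 1. Thus 3 of 7 members were over 2-fold lower in R255K cells and 0 over 2-fold higher, against 10.1% of expressed genes in each direction. On the log2(FPKM + 1) scale the median of R255K minus WT was −0.74 over the members and 0.05 over all expressed genes. When Gapdh alone set the scale, both medians were above 0 (0.49 and 1.37) and Kmt2c alone of the 7 stayed lower in R255K cells. The differences at 0 h rest on 1 library per genotype and were smaller at 4 h. By then Kmt2c was 1.32-fold, Kmt2a and Setd1b 1.14-fold, Kmt2d 1.10-fold and Kmt2e 1.09-fold higher in WT. In R255K cells Kmt2c rose from 1.10 FPKM at 0 h to 1.27 at 4 h. What lies behind this change from 0 to 4 h was not tested.

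The R255K 0 h library differed from WT by GC content. The median log2 difference at 0 h was −0.38 in the quartile of expressed genes with the lowest GC content and 0.27 in that with the highest, while at 8 h these medians were 0.31 and 0.39. The 2314 expressed genes with at least as much exon as the shortest member had a median of −0.24 at 0 h. Each of the 7 members lay below the median of genes of like GC content, and 6 lay below their interquartile range. With the GC trend taken out, Kmt2c was 4.46-fold, Kmt2a 2.35-fold and Kmt2d 2.12-fold higher in WT, and Kmt2e fell to 1.86-fold. Kmt2e shares 972 bp of exon with Srpk2 on the other strand, which had 1191 counts in WT and 776 in R255K cells at 0 h. The library kit does not mark strand and the counting tool is not given in the sources used here, so counts of Kmt2e are uncertain.

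**Figure D3:**
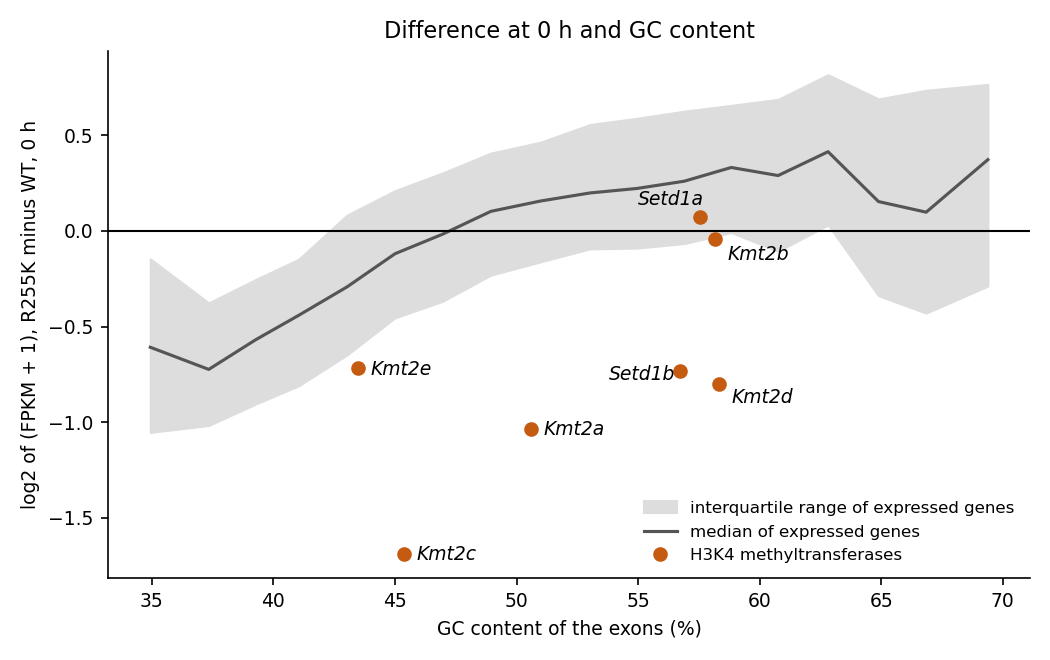
Difference at 0 h (y axis, log2 of FPKM + 1, R255K minus WT, libraries scaled by summed counts) against the GC content of the exons (x axis). The line is the median of all expressed genes in bins of GC content, the band their interquartile range and the points the 7 members, all of which lie under the line. With Gapdh as the scale 6 of the 7 members would stand above 0.

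After transcription was blocked, the members disappeared faster than most mRNAs. In WT cells Kmt2a fell to 34.1% of its 0 h level at 4 h and 15.7% at 8 h, Kmt2b to 49.5% and 23.3%, Kmt2c to 29.2% and 5.69%, Kmt2d to 34.2% and 15.0%, Kmt2e to 20.3% and 6.88%, Setd1a to 41.2% and 21.7%, and Setd1b to 17.6% and 10.9%. All 7 were below the medians of all expressed genes, 88.2% at 4 h and 64.1% at 8 h. These shares are relative to the summed counts of each library, which hold no fixed amount of RNA. Total mRNA also falls under actinomycin D, and so the true shares cannot be read from them. In R255K cells Kmt2a was at 68.8% and 42.6%, Kmt2b at 59.4% and 40.1%, Kmt2c at 116% and 68.3%, Kmt2d at 58.0% and 38.1%, Kmt2e at 45.1% and 26.9%, Setd1a at 67.0% and 44.6%, and Setd1b at 27.0% and 20.4%. The medians of all expressed genes there were 96.4% and 92.0%. Every member kept a larger share in R255K than in WT cells at both times, also under each other scaling tried except that with Gapdh, where 0 of 7 did at 4 h and all 7 at 8 h.

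**Figure D4:**
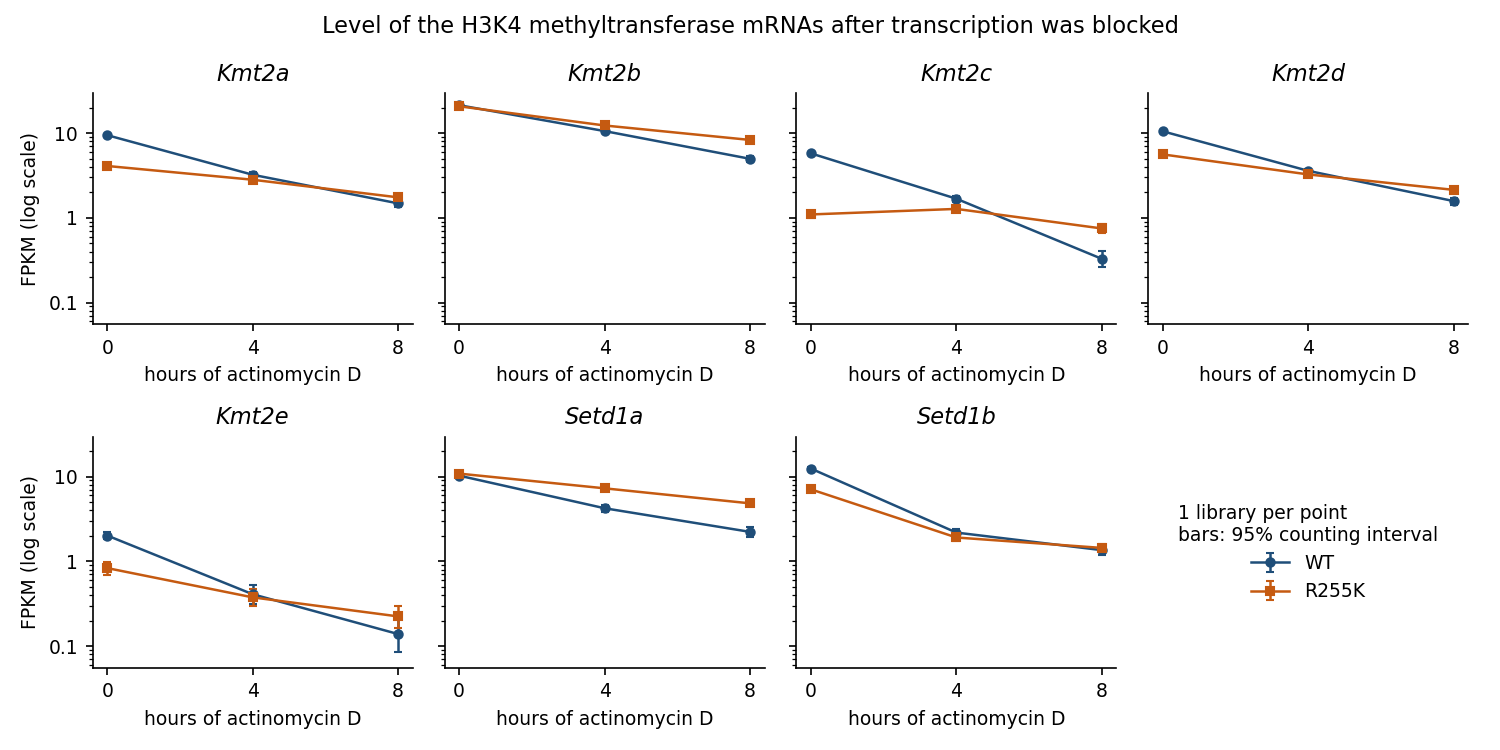
FPKM (y axis, log scale) of each member at 0, 4 and 8 h of actinomycin D (x axis) in WT and R255K cells, 1 library per point, with 95% counting intervals as bars, libraries scaled by summed counts. The R255K level falls by a smaller share than the WT level from 0 to 8 h in all 7 panels, and at 8 h no R255K point lies below its WT point (with TMM scaling Kmt2a and Setd1b do).

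Half-lives were taken from the mean of the rates over 0 to 4 h and 0 to 8 h. In WT cells they ran from 1.89 h for Kmt2e to 3.87 h for Kmt2b, and 6 of 7 (between 5 and 7 under the other scalings) were shorter than the median of 3.48 h over the 5504 expressed genes with decay in both genotypes. The half-life of Kmt2a went from 2.77 h in WT to 6.93 h in R255K cells, which makes a ratio of 2.50 (2.14 to 2.93). Setd1a went from 3.36 to 6.90 h (2.05, 1.74 to 2.43). Kmt2e went from 1.89 to 3.82 h (2.02, 1.52 to 2.68) and Kmt2d from 2.74 to 5.40 h (1.97, 1.78 to 2.19). The 2 smallest ratios were those of Kmt2b, from 3.87 to 5.67 h (1.46, 1.33 to 1.60), and Setd1b, from 1.95 to 2.64 h (1.35, 1.25 to 1.46).

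Kmt2c had no measurable decay in R255K cells over the mean of these windows. Its half-life was 2.08 h in WT (1.97 to 2.20), and in R255K cells the rate was 0.0050 per hour with an interval from −0.019 to 0.029, which allows any half-life of 24.1 h or more. The counts were 348, 481 and 286 at 0, 4 and 8 h, so the level at 0 h was no higher than at 4 h. The estimate of the ratio, 66.9, has no upper limit. Over 0 to 8 h alone decay was measurable, with a half-life in R255K cells of 14.6 h (10.3 to 24.7) and a ratio of 7.53. From 4 to 8 h alone, a window that uses neither 0 h library, the Kmt2c half-life went from 1.70 h (1.49 to 1.96) to 5.22 h (4.09 to 7.20), and the ratio was 3.07.

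Thus 5 of 7 members had a half-life ratio of R255K to WT over 1.5, against 68.8% of the 5504 genes. The median was 2.02 in the members and 1.98 over all, and both fell below 1 (0.567 and 0.549) with Gapdh as the scale. Under the scaling used, the members shared the longer half-lives in R255K cells with most genes. Among the 1205 genes with at least as much exon as the shortest member the median ratio was 2.41 and 83.3% were over 1.5. From 4 to 8 h alone all 7 members were over 1.5, between 1.57 for Setd1a and 3.07 for Kmt2c, beside 72.7% of all genes with a ratio there, but their median of 1.92 was below the 2.40 of all genes. From 0 to 8 h alone the medians were 1.97 in the members and 2.21 over all genes. With the GC trend removed, the ratio of Kmt2c was 9.34 and those of the others lay between 1.45 (Setd1b) and 2.61 (Kmt2a).

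**Figure D5:**
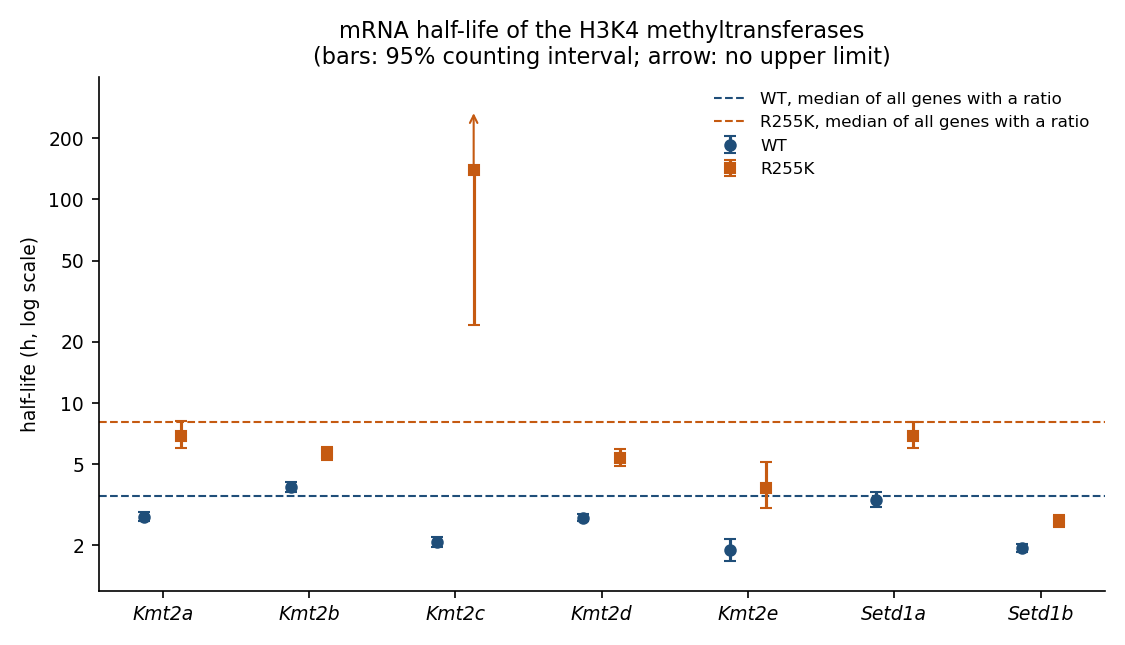
Half-lives (y axis, hours on a log scale) in WT (circles) and R255K cells (squares) with 95% counting intervals, and the medians of all 5504 genes as dashed lines, with libraries scaled by summed counts. The R255K value is the higher in every gene (with Gapdh as the scale, only in Kmt2c), and the arrow marks that Kmt2c has no upper limit.

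Within the pairs of related enzymes the genes were not alike. The half-life ratio of Kmt2a (2.14 to 2.93) lay above that of Kmt2b (1.33 to 1.60), and that of Setd1a (1.74 to 2.43) above that of Setd1b (1.25 to 1.46), with no overlap of the intervals in either pair. With Gapdh as the scale Setd1a stood below Setd1b (0.412 and 0.597), and Kmt2a still above Kmt2b (0.567 and 0.293). From 4 to 8 h alone the estimates stood the other way round in both pairs, with 1.62 for Kmt2a and 1.92 for Kmt2b, and 1.57 for Setd1a and 1.69 for Setd1b. No interval was computed for these ratios. The half-lives behind them had wide intervals, such as 6.50 to 19.9 h for Setd1b in R255K cells, so the order in this window is uncertain. Setd1b decayed mainly in the first 4 h, with a half-life of 1.59 h there and 5.81 h from 4 to 8 h in WT cells. The WT half-life was also longer after 4 h in Kmt2a (2.58 and 3.57 h) and Kmt2d (2.58 and 3.37 h). It was longer too in Kmt2e (1.74 and 2.56 h) and Setd1a (3.13 and 4.32 h), where the intervals overlapped. Kmt2b (3.95 and 3.68 h) and Kmt2c (2.25 and 1.70 h) did not show this.

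At 8 h the R255K level was above that of WT in each gene, except that Kmt2a and Setd1b stood at 0.872 and 0.787 of WT with TMM scaling. Setd1a was 2.17-fold higher (1.85 to 2.55), Kmt2c 2.28-fold (1.80 to 2.92) and Kmt2b 1.67-fold (1.52 to 1.83). Kmt2d was 1.36-fold higher (1.21 to 1.53) and Kmt2a 1.18-fold (1.03 to 1.35), and the intervals of Kmt2e (1.62, 0.932 to 2.89) and Setd1b (1.06, 0.894 to 1.26) held 1. So 2 of 7 were over 2-fold higher, against 35.0% of 11720 expressed genes. The median of all expressed genes was itself 0.33 higher on the log2(FPKM + 1) scale in R255K cells, and 3 members (Setd1a at 0.85, Kmt2b at 0.64 and Kmt2c at 0.40) stood above it, whereas Kmt2d, Kmt2a, Kmt2e and Setd1b did not. The added 1 FPKM draws members of low level toward 0. At 8 h Kmt2e was at 0.139 FPKM in WT and 0.224 in R255K cells, and Kmt2c at 0.328 and 0.749. Their places beside the median thus depend on their level.

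Of 26 other genes of the same system, 23 were expressed and 10 had a half-life ratio, 8 of them over 1.5 (median 1.98), beside the 68.8% of all genes. Of the 4 core subunits, which all 6 complexes share, Wdr5, Ash2l and Dpy30 had no half-life, since their levels relative to the summed counts did not fall in WT cells. Rbbp5 decayed in both genotypes, with half-lives of 7.52 and 8.43 h. Kdm6a and Ncoa6, partners in the enhancer-type complex, were short-lived in WT cells. Kdm6a, an H3K27 demethylase, went from 1.47 to 3.69 h (ratio 2.52, 2.19 to 2.90), with 3 WT peaks and 0 R255K peaks on its exons, and Ncoa6 from 1.88 to 4.08 h (2.17, 1.88 to 2.50). Paxip1 went from 10.8 h to 261 h, beyond what 8 h can measure. At 0 h, Kdm6a, Psip1, Bod1l, Hcfc2 and Ash1l were over 2-fold lower in R255K cells, and Setd7 and Smyd2 over 2-fold higher, against 10.1% of expressed genes in each direction. Bod1l, listed here with the partners of SETD1A and SETD1B, was at 0.217 of its WT level at 0 h, but 1.90-fold higher than WT at 4 h and 5.24-fold at 8 h. Its R255K level rose from 1.08 FPKM at 0 h to 4.61 at 4 h although transcription was blocked. The low value thus rests on the R255K 0 h library alone. Among the demethylases that remove the mark, Kdm5b went from 2.86 to 5.14 h (1.80, 1.71 to 1.89). The 1 gene with a clearly smaller ratio, Cxxc1, went from 95.7 to 13.9 h, so that its WT decay was near 0. Of the 23 genes 18 had a WT peak, and 20 of their 46 WT peaks had no R255K counterpart, near the 47.9% of all genes.

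Some other genes had levels over the 6 libraries close to the median of the members. By Euclidean distance over the 6 libraries between log2(FPKM + 1), centred for each gene, and the median of the 7 members, the nearest other genes were Cbl (distance 0.122), Aebp2 (0.173), Lrch1 (0.176), Mgat3 (0.184) and Sntb2 (0.192). Kmt2d was itself at 0.160 and Setd1a, the farthest member, at 0.871. Among the 11869 expressed genes these ranked 2 and 1293. The median was made from the members, so their nearness to it is partly built in. All 5 of the nearest genes carried WT peaks, between 1 on Mgat3 and 3 on Cbl. Their half-life ratios lay between 1.78 for Mgat3 and 3.07 for Lrch1. The 5 genes were picked by their levels in the same libraries, so like ratios follow from the choice.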

How the data were processed

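The series holds 14 samples, 8 of MeRIP-seq and 6 of the actinomycin D time course, grouped by the titles and genotypes the submitters gave. Per the study's methods, the authors removed reads from rRNA, aligned the rest to mm10 with HISAT2, kept uniquely mapped reads of high quality and called MeRIP-seq peaks of IP over input with MACS2. The submitters' processing notes name Bowtie2 2.2.6, Picard 2.16.0 and SAMtools 0.1.09. The deposited peak lists give a ratio per peak (the fold enrichment at the summit over local background) and a −log10 q, both from MACS2 as the authors ran it, and how replicates were pooled is not given in the sources used here. The deposited count tables hold whole counts per gene as the authors counted them, without normalization, and the counting tool is not given. Their gene models matched GENCODE vM21 (exon length of 52457 of 52459 genes, and 0 exons past a chromosome end). Sums per library ran from 13812160 to 18813640, and 0 columns of other samples were found.

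FPKM was computed from the counts, each library's total and the exon length deposited with them. The decay rate was averaged over 2 windows, 0 to 4 h and 0 to 8 h, in each of which the natural log of the ratio of the first FPKM to the last was divided by the hours, and the half-life was the natural log of 2 over that rate. A ratio was given where both rates were above 0, and counts below 3 at 4 or 8 h were set to 3. Genes with a mean of at least 1 FPKM over both genotypes at 0 h were called expressed. Log2 differences used a pseudocount of 1 FPKM. Intervals of ratios of counts are exact conditional binomial intervals, those of half-lives come from the Poisson error of the counts by the delta method, and those of shares are Wilson intervals, all at 95% and for counting error only. Peaks were placed on a gene by an overlap of 1 bp with an exon, and compared in the same way. A WT peak that no R255K peak overlapped is said to have no counterpart, and where 2 R255K peaks overlapped a WT peak the one of higher fold enrichment is given. Positions in a transcript use 1 protein-coding transcript per gene, the principal one with the longest coding sequence. Motifs were searched on the strand of the gene in 201 bp around each summit, in the RefSeq copy of GRCm38. The sequence at 1 further peak is not reported here.

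Tools were statsmodels 0.14.6 (lowess with a span of 0.3 for GC content), scipy 1.17.1, pandas 2.3.3 and numpy 2.4.6 in Python 3.11.15, pysam 0.24.0, bedtools 2.31.1, matplotlib 3.10.9 and, for TMM factors only, edgeR 4.0.16 in R 4.3.3. The decay estimate was tested on simulated data. The 7 genes, the 26 other genes of the system and the markers were chosen with earlier results of these data known. The text names the 7 genes and all their peaks, genes of the lists, the 5 genes of most similar profile and Mettl14. The alternatives were other scalings (TMM, Gapdh, genes without a peak, ribosomal protein genes), removal of the GC trend, single time windows, no filter, a pseudocount of 0.1, stricter peaks (fold enrichment of at least 4, −log10 q of at least 5), placement by summit and 50% coverage.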

Additional observations from a re-analysis of the deposited data

How the results depend on the processing

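No paired analysis was possible because the count tables hold 1 library per genotype and time, and the numbered IP and input libraries are merged into 1 peak list per genotype. For the same reason no replicate could be left out. The counts of WT peaks (35 to 43), R255K peaks (20 to 28) and WT peaks without a counterpart (16 to 23) on the members stayed within 1.5 times of the reported 43, 28 and 17 under every rule for peaks that was tried. Except with Gapdh, so did the number of members over 2-fold apart at 0 h (3 to 4) and the number with a half-life ratio over 1.5 (4 to 7), and the median ratio ran from 1.77 to 2.26.

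Scaling by Gapdh alone turned the direction, with 0 members over 1.5 and a median ratio of 0.567. Single ratios were then 0.567 for Kmt2a, 0.524 for Kmt2d, 0.760 for Kmt2e 0.412 for Setd1a, 0.597 for Setd1b and 0.293 for Kmt2b, beside 0.549 for the median of all genes. At 0 h Gapdh scaling gave a median log2 difference of 0.49, with 0.21 for Kmt2a and 0.11 for Kmt2e, and the 2 members then over 2-fold apart, Kmt2b (1.35) and Setd1a (1.44), were higher in R255K cells. It moved the median of all genes from 0.05 to 1.37. The cause was not tested. The median at 0 h of −0.74 became −0.89 with ribosomal protein genes as the scale, −0.87 with the GC trend removed and −0.89 with a pseudocount of 0.1. Kmt2c had no ratio with TMM or from 0 to 4 h, where its R255K level did not fall, and its ratio of 66.9 fell to between 3.07 and 17.4 under the other alternatives that gave one, except Gapdh (1.29).

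Without replicates, differences between libraries of 1 genotype are unknown, and the lowest counts (20 for Kmt2e and 92 for Kmt2c in WT at 8 h) limit the late half-lives.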
